A study of Rattus norvegicus with 2 samples.

Results

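The respiratory chain of the inner mitochondrial membrane passes electrons from NADH through complex I and from succinate through complex II to coenzyme Q, on through complex III and the soluble carrier cytochrome c, and to oxygen at complex IV. Complexes I, III and IV pump protons, and complex V, the ATP synthase, uses the return of those protons to make ATP. Kidney tubule cells, above all those of the proximal tubule and the thick ascending limb, are rich in mitochondria because they drive active transport of salt and solutes. PPAR-gamma agonists such as pioglitazone are known for inducing mitochondrial genes in fat cells.

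The genes of this chain were chosen by their symbols: those that start with Nduf, Uqcr, Atp5, Cox4, Cox5, Cox6, Cox7 or Cox8, plus Sdha, Sdhb, Sdhc, Sdhd, Cyc1 and Cycs. On the arrays 92 probes named 79 such genes, out of 13435 named genes in all. Of the 79, 77 were well above background on both arrays, as were 10480 of all named genes. Symbols that meet the rule but have no named probe, among them Cyc1, Cox6b1, Cox7a1 and Ndufa4l2, are not analysed here. Neither are the subunits encoded by mitochondrial DNA. RefSeq accessions named 16959 of 40998 probes, so the lack of a named probe does not show that the arrays hold none.

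Both groups were female PCK rats, so the controls also carry the strain's mutation in Pkhd1, the gene mutated in autosomal recessive polycystic kidney disease. Between the ages of 4 and 20 weeks they were gavaged daily, the treated group with pioglitazone at 10 mg/kg and the control group with the vehicle, which held 0.5% DMSO. Each group gave 1 pool of kidney RNA, from 5 females according to the design text or 3 rats according to the labelling text, and each pool was hybridised to 1 one-colour Agilent array. With 1 array per group there was no replicate, so no difference below has a test or an error between animals. Kidney markers were present in both pools, where Umod (uromodulin of the thick ascending limb) gave a signal of 195000 with vehicle and 220000 with pioglitazone. Of 43379 spots, 71.8% were well above background on the vehicle array and 73.1% on the pioglitazone array, and none was saturated.

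A difference below is the log2 signal with pioglitazone minus that with vehicle, after each array's 75th percentile was subtracted. The technical error is the scanner software's error of both spots combined, and it was 0.20 for most of these genes. This error was the same for nearly all bright spots. Among 203 probes printed at least 10 times, replicate spots varied less, with a median SD of the difference of 0.072. Neither figure holds the spread between animals. In whole kidney RNA, fewer cells of a type and less RNA per cell cannot be told apart.

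Promoter sequence is shown for the members at the ends of the range and for 2 bright members whose promoters hold a motif typical of nuclear genes for mitochondria. Each line gives the 100 bases just before the RefSeq start site (GRCr8 assembly), 5′ to 3′ on the gene's own strand. Capitals mark matches on either strand to the 7 motifs spelled out after the sequences.
Cox8b, chr1:205408274-205408373, minus strand: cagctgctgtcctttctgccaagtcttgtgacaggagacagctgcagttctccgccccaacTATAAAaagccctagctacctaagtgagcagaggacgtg
Cox8a, chr1:213833624-213833723, minus strand: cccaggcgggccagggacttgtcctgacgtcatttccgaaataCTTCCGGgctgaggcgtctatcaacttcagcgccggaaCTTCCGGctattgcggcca
Atp5po, chr11:44657484-44657583, minus strand: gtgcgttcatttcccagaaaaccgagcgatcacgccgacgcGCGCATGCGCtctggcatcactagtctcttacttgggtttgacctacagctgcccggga
Cox7b, chrX:75148936-75149035, plus strand: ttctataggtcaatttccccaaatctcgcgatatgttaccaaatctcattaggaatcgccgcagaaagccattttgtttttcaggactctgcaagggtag
Ndufv1, chr1:210734892-210734991, minus strand: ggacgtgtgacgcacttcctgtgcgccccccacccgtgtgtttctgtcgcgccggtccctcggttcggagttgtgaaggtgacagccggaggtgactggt

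The muscle and heart isoform gene Cox8b carries a TATA motif (TATAAA) whose first base lies 39 bases before its start, while Cox8a, its partner expressed in most tissues, carries the ETS motif (CCGGAAG) at 57 and at 19 bases. In Atp5po an NRF1 motif (GCGC and GCGC, separated by 2 bases of any kind) begins 59 bases before the start. The search covered 250 bases before to 50 after the start in the 70 members with a promoter entry. ETS motifs were in 21 of these promoters (30.0%), against 16.5% of the promoters of all measured genes and 8.75% of all 33469 promoters. NRF1 motifs were in 15 members (21.4%), against 11.2% of measured genes and 5.58% of all promoters. The YY1 motif AAGATGGCG was in 8 (11.4%), against 3.16% and 1.73%. The estrogen-related receptor motif TCAAGGTCA was in 1 member, Sdhd (0.212% of measured genes and 0.433% of all promoters), and its shorter core AAGGTCA, which that match contains, was in 9 (12.9%), against 3.16% and 4.61%. The PPAR response element (a pair of AGGTCA separated by 1 base of any kind), which contains the shorter core where that base is A, was in 0 of 70 members, in 0.0335% of measured genes and in 0.0538% of all promoters. TATAAA was in 5 members (7.14%), against 8.38% and 14.2%. A match describes these letters and is not a binding site.

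Most respiratory chain genes were slightly higher in the pioglitazone pool, and the one member with a large difference, Cox8b, was lower. The median difference over the 77 measured members was 0.096, against 0.030 over all measured genes. A difference above 0 was seen in 71 of 77 members, where 57.1% of all measured genes lay above 0. With quantile scaling 54 of 77 were above 0 (53.4% of all genes), and with cyclic loess 53 of 77 (51.3%). At 1.5-fold, 0 members were higher (background 0.859%) and 1 was lower (background 1.84%). At 1.1-fold, a threshold chosen after the values were seen, 23 members were higher, where 25.4% of measured genes were, and 2 were lower, where 21.2% were. The share of members past 1.1-fold upward was thus near the background, and few members were past it downward. The summed signal of the measured members was 2188040 with vehicle and 2444470 with pioglitazone before scaling, and the scaling removed a shift of 0.079 in log2.

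**Figure D1:**
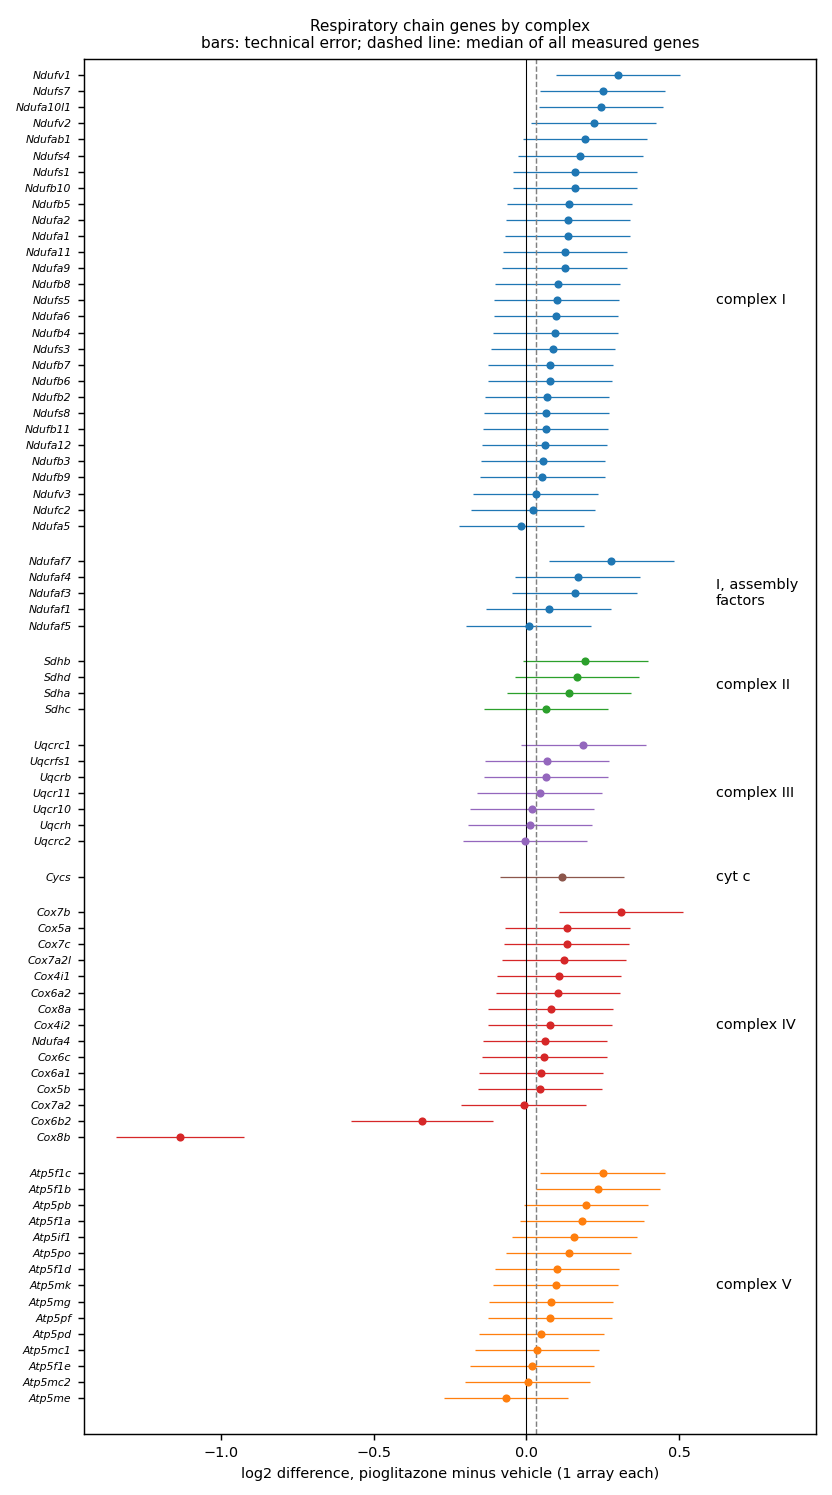
Log2 difference between the pioglitazone and vehicle arrays for 76 of the 77 measured genes, grouped by complex, with the technical error of each as a horizontal bar. All but 6 points lie to the right of 0, most within 1 error of it, and Cox8b stands far to the left at -1.14.

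In complex I, which oxidises NADH, the core subunits had the larger differences. Core subunits carry the flavin and iron-sulfur clusters or line the electron path, and all 7 measured were above 0, with a median of 0.16. Ndufv1, the flavin-binding subunit that takes electrons from NADH, gave a signal of 4960 with vehicle and 6450 with pioglitazone, a difference of 0.30. Ndufs7, which holds the last iron-sulfur cluster before coenzyme Q, gave 19600 and 24600 (0.25), and Ndufv2, an iron-sulfur subunit beside Ndufv1, gave 30400 and 37400 (0.22). These 3 were higher with pioglitazone, although none exceeded 2 technical errors. The lowest core member was Ndufs8, at 2190 and 2420 (0.065), next to Ndufs3 at 14800 and 16600 (0.087).

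The accessory subunits of complex I surround the core and are needed for its assembly and stability. Of 23 measured, 22 were above 0, with a median of 0.097 and a range from -0.017 to 0.24. Ndufa10l1, a member of the Ndufa10 family, was highest, with signals of 9830 and 12300, followed by the acyl carrier protein Ndufab1 at 9040 and 10900 (0.19) and Ndufs4 at 166 and 198 (0.18). Ndufa5 was the one accessory member below 0, with signals of 34500 and 36000 that became -0.017 after scaling. Ndufc2 at 0.021 and Ndufv3 at 0.030 also lay below the median of all genes. These values place the accessory subunits between the core subunits and complex III.

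Assembly factors of complex I are not part of the finished enzyme, and 5 Ndufaf genes were measured, all above 0, with a median of 0.16. Ndufaf7, a methyltransferase, gave 489 with vehicle and 626 with pioglitazone, a difference of 0.28. Ndufaf4 was at 1450 and 1720 (0.17), Ndufaf3 at 1010 and 1190 (0.16), Ndufaf1 at 280 and 311 (0.073), and Ndufaf5, a hydroxylase of Ndufs7, at 3750 and 3980 (0.0073). The median of the 30 subunits was 0.10, so subunits minus assembly factors came to -0.057. The error of that gap is not known, since each gene has 1 array per group and only 5 factors were measured. Over the other settings the gap ran from -0.098 to 0.00085. Most subunits were brighter than these factors. Over all members the median was 0.14 between signals of 1000 and 5000 and 0.072 between 20000 and 40000. The part of signal in the gap was not tested. With normexp background correction Ndufaf1 was at -0.0033.

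Complex II, succinate dehydrogenase, links the citric acid cycle to the chain, and all 4 of its genes were above 0, with a median of 0.15. The iron-sulfur subunit Sdhb gave 16900 with vehicle and 20400 with pioglitazone (0.19). The membrane anchor Sdhd gave 22800 and 27000 (0.17), and the flavoprotein Sdha gave 62500 and 72700 (0.14). The other anchor, Sdhc, was lowest at 13500 and 14900 (0.064). Each of the 4 lay within 1 technical error of 0.

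Complex III, which passes electrons from coenzyme Q to cytochrome c, had the lowest median of the 5 complexes. Its 7 measured genes had a median of 0.043, close to the 0.030 of all genes, and 6 were above 0, while cyclic loess turned the median to -0.024. Over fewer of its genes, the median was 0.12 with only high-gain spots and 0.14 with the second brightest probe. Uqcrc1, a large matrix-side subunit, stood highest at 2030 with vehicle and 2440 with pioglitazone (0.19), while its partner Uqcrc2 was at 11500 and 12100, which scaling turned to -0.0052. The Rieske iron-sulfur protein Uqcrfs1 was at 23600 and 26100 (0.067), and Uqcrb at 44100 and 48700 (0.065) on its brightest probe. The small subunits Uqcr11 (0.043), Uqcr10 (0.017) and Uqcrh (0.011) lay near the median of all genes. The probe for Uqcrq was not well above background with vehicle (signal 6.94) and was so with pioglitazone (9.07). Set against the lowest vehicle signal well above background it was 1.12-fold higher. That is within its technical error of 0.44 in log2, so no minimum rise can be given. Cytochrome c itself (Cycs) gave 29000 and 33200, a difference of 0.12, and its other 2 probes gave 0.14 and 0.19.

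Complex IV, cytochrome c oxidase, is built around subunits made in the mitochondrion, and its nuclear genes include pairs of which one is used in most tissues and the other in a few. Of 10 measured genes used in most tissues, 9 were above 0, with a median of 0.070 that cyclic loess turned to -0.0046. Cox7b gave 13300 with vehicle and 17400 with pioglitazone, and its difference of 0.31 was the highest of all members. Cox5a was at 27700 and 32100 (0.13), Cox7c at 5550 and 6420 (0.13) and Cox4i1 at 10200 and 11600 (0.11). The others ran from -0.0096 to 0.079, against a median of 0.030 over all genes. They were Cox8a at 0.079, Ndufa4, now counted as a complex IV subunit, at 0.060, Cox6c at 0.059, Cox6a1 at 0.048, Cox5b at 0.045 and Cox7a2 at -0.0096. Cox8a was at 0 with quantile scaling. Cox7a2l, which joins complexes III and IV into larger assemblies, was at 4720 and 5430 (0.12).

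The tissue isoforms of complex IV went both ways. Cox8b, the isoform of heart, skeletal muscle and brown fat, gave a signal of 104 with vehicle and 50 with pioglitazone, a difference of -1.14, or 2.20-fold lower. It was the 1 member whose difference exceeded 2 technical errors (its error was 0.21), a size that 5.63% of measured genes reached in either direction. Of 10480 measured genes, 21 (0.2%), itself included, were at least as much lower. Among 2008 genes with a signal within 2-fold of its own, 51 were at least 1.5-fold lower (2.54%) and 8 were at least as much lower (0.398%). The value rests on 1 spot, and with normexp correction it was -0.68. That correction adds an offset of 50 to each signal, which by itself makes the differences of spots this dim smaller. Cox6b2, a testis isoform, was dim and lower, at 38.3 and 31.9 (-0.34, technical error 0.23). Cox6a2, the heart and muscle isoform, was at 260 and 295 (0.10), and Cox4i2, known from lung and from low oxygen, was at 970 and 1080 (0.076). The testis isoform Cox8c was not well above background on either array, with signals of 1.57 and 1.47.

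Cox8b is a gene of muscle and brown fat, so the markers of both tissues are given beside it. The brown fat uncoupling protein gene Ucp1 was at 310 with vehicle and 95.3 with pioglitazone (-1.78). Among genes of white fat, Retn was at 276 and 60.4 (-2.27), complement factor D (Cfd) at 1140 and 534 (-1.17) and Thrsp at 158 and 87.5 (-0.93). Other defining fat genes were nearly level, with Adipoq at 822 and 814 (-0.093), Cidea at 518 and 499 (-0.13) and Fabp4 at 249 and 251 (-0.067). The fat lists therefore split, with 3 of 8 measured white fat genes and 1 of 6 brown fat genes at least 1.5-fold lower, where 1.84% of all measured genes were. Carbonic anhydrase Car3, of the white fat list, was left out of these counts because it was well above background with vehicle alone. Its signals were 38 and 7.82, 5.13-fold lower with pioglitazone after scaling, with a technical error of 0.40 in log2. The list medians were -0.080 and -0.075, and the white fat list includes Pck1, which the proximal tubule also expresses strongly. Of the 10 brown fat genes, Elovl3, Dio2 and Zic1 were not well above background on either array. Of 14 striated muscle genes 8 were measured, with a median of 0.082, from Myh2 (0.50) and Tnnc2 (0.26) to Actn2 (-0.15) and Tnnt3 (-0.51), and the muscle creatine kinase Ckm and the myosins Myh1 and Myh4 were not well above background on either array. The heart myosins Myh6 (3.48 and 10.5) and Myh7 (8.42 and 12.3) were well above background with pioglitazone alone. Myh6 was 1.30-fold higher there when set against the lowest vehicle signal well above background. Myh7 was 1.38-fold higher on its own signals. Their technical errors were 0.93 and 0.40 in log2. The highest white fat genes were Pck1 (0.32) and the lipase Lipe (0.0099), and the highest brown fat genes were Fabp3 (0.10) and Cpt1b (0.064). Before scaling, the summed signal of the measured white fat genes was 9035 with vehicle and 10082 with pioglitazone, of which Pck1 gave 6140 and 8070. That of the brown fat genes was 9374 and 10136, most of it from Fabp3 (4520 and 5130) and Cpt1b (3850 and 4250). The other measured brown fat genes were each lower with pioglitazone after scaling. For muscle the sum was 1968 and 2081. The scaling removed a shift of 0.079 in log2. The part of fat or muscle RNA in the difference of Cox8b was not tested.

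**Figure D2:**
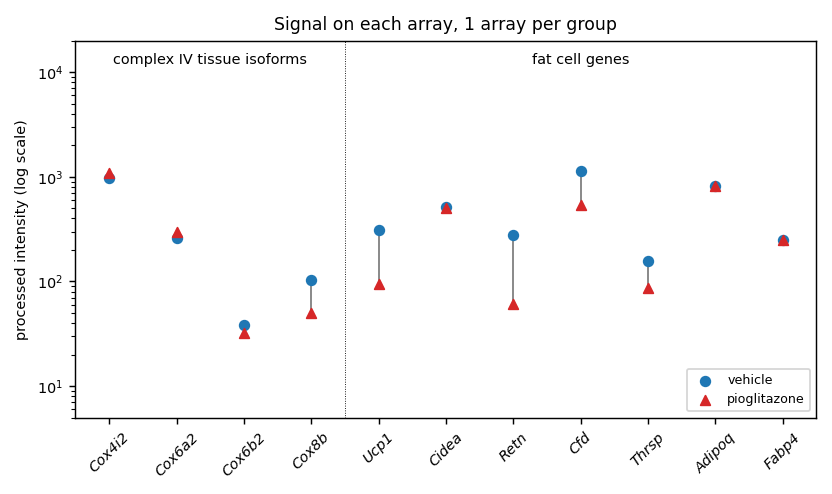
Processed intensity on a log scale for the 4 measured complex IV tissue isoforms and for 7 fat cell genes, vehicle as circles and pioglitazone as triangles, 1 array each. Cox8b, Ucp1, Retn, Cfd and Thrsp show the triangle well below the circle, while Adipoq, Cidea and Fabp4 do not.

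Complex V, the ATP synthase, had 14 of 15 measured genes above 0, with a median of 0.096. The catalytic F1 head stood highest, with a median of 0.18 over 5 genes. Atp5f1c, the rotating central stalk, gave 13300 with vehicle and 16700 with pioglitazone (0.25), the catalytic subunit Atp5f1b gave 32200 and 40000 (0.23), and its partner Atp5f1a gave 24200 and 29000 (0.18). The small F1 subunits were lower, Atp5f1d at 0.10 and Atp5f1e at 0.018. The peripheral stalk, which holds the head still, had a median of 0.11 over 4 genes, from Atp5pb at 79700 and 96300 (0.19) and Atp5po at 75800 and 88100 (0.14) to Atp5pf at 0.077 and Atp5pd at 0.048.

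The membrane part of complex V held both the lowest member of that complex and the member at its median. Of the genes that encode the proton-carrying c ring, Atp5mc1 was at 0.035 and Atp5mc2 at 0.0034. Among small membrane subunits, Atp5mk was at 0.096, Atp5mg at 0.080 and Atp5me, at 124000 with vehicle and 125000 with pioglitazone, at -0.067. With quantile scaling Atp5mk was at -0.0023 and Atp5pf at 0. Atp5if1, the inhibitor that stops the synthase from running backwards, gave 23700 and 27900 (0.16).

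Many of these genes are among the brightest on the array, so the differences were set against signal. Of the members, 58 had a signal (geometric mean of both arrays) of 9930 or more. Their median was 0.080 and 54 were above 0, while 692 other genes that bright had a median of 0.059 with 73.0% above 0. In all, 74.5% of the 750 genes that bright lay above 0, 23.5% were at least 1.1-fold higher and 6.8% at least 1.1-fold lower. At 1.5-fold, 0 of the 750 were higher and 0 were lower. Between signals of 5000 and 20000 the median was 0.12 over 21 members and 0.059 over 950 other genes. Between 1000 and 5000 it was 0.14 over 9 members and 0.049 over 2335 others. The largest class, between 20000 and 40000, had 0.072 over 24 members and 0.059 over 182 others. Above 40000 it was 0.065 over 17 members and 0.037 over 118 others. The 2 members below 100 were Cox8b and Cox6b2.

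Scanner gain and probe choice moved with the size of the differences. The brightest spots were read at a low gain and scaled up. The 34 members read at high gain on both arrays had a median of 0.13, the 37 read at low gain on both had 0.065, and the 6 read at low gain on the pioglitazone array alone had 0.13. Other genes above a signal of 10000 had medians of 0.056, 0.047 and 0.13 in the same 3 classes. The members had no such floor, and those read at high gain reached down to Cox6b2 (38.3 and 31.9), so the high-gain medians cover unlike ranges of signal. Of 9 members with several measured probes, every probe was above 0 in all 9, and in 7 the brightest probe, which stands for the gene here, had the lowest difference. For Atp5mc2 the brightest probe gave 0.0034 and the other 0.20. For Ndufc2 these were 0.021 and 0.25, and for Uqcrb 0.065 against 0.14 and 0.17. Ndufa10l1 and Ndufa2 went the other way. RefSeq lists many pseudogenes among the 229 symbols that meet the rule, and it was not tested which probes could also read such copies or near-identical paralogs. The part of scanner gain and probe brightness in the size of these differences was not tested.

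Other mitochondrial genes shifted by about as much as the chain itself. Of all measured genes, 57.1% lay above 0. Among genes outside the chain it was 64.8% at signals of 1000 to 5000 and 71.2% at 5000 to 20000. Assembly factors of complexes I to V with other symbols were above 0 in 24 of 27, with a median of 0.10, led by Ttc19 of complex III (0.45) and Tmem70 of complex V (0.38), with Cox15, needed for haem A, at -0.089 and Cox20 at -0.0095. Mitochondrial ribosome genes were above 0 in 41 of 45, with a median of 0.10, from Mrps18b (0.42) and Mrpl2 (0.38) to Mrps18a (-0.15) and Mrps26 (-0.018). Carriers and import genes were above 0 in 23 of 25, with a median of 0.11, from the ADP/ATP carrier Slc25a5 (0.28) and Timm13 (0.27) to Timm44 (-0.028) and Immt (-0.074). Citric acid cycle and pyruvate dehydrogenase genes were above 0 in 17 of 18, with a median of 0.083, led by Pdha1 (0.37) and Pdhb (0.35), with Suclg2 at 0.027 and Idh3a at -0.037. Genes of other electron entry routes and of coenzyme Q synthesis were above 0 in 12 of 14, with a median of 0.084, from Coq2 (0.29) and Pdss2 (0.24) to Gpd2 (-0.0092) and Dhodh (-0.096). Over all 5 lists 0 members were 1.5-fold higher or lower, where 0.859% and 1.84% of all measured genes were.

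Regulators of mitochondrial biogenesis had a median close to that of all genes, which depended on the processing. Of 21 measured, 12 were above 0 (57.1% of all measured genes were), with a median of 0.027 against 0.030 for all genes. With quantile scaling the median was 0.066, against 0.016 for all genes and 0.044 for the chain, and over all settings it ran from -0.040 to 0.16. The coactivator Ppargc1a was at 157 with vehicle and 142 with pioglitazone (-0.22), Ppargc1b at -0.14 and the receptor Esrra at -0.11. Nrf1 was at -0.027 and Gabpa at -0.032, the factors that bind the NRF1 and ETS motifs above. The mitochondrial transcription factor Tfam was at 0.12, and Ppard (0.34) and Polg2, a subunit of the mitochondrial DNA polymerase (0.28), were highest. Esrrg (-0.40) and Pparg (-0.29) were lowest. None of the 21 was 1.5-fold higher or lower, where 0.859% and 1.84% of all measured genes were.

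Markers of the kidney's cell types went both ways, and of all measured genes 57.1% lay above 0. The summed signals here are before scaling, which removed a shift of 0.079 in log2, while the medians are after it. Proximal tubule markers were above 0 in 18 of 20, with a median of 0.16 and a summed signal of 534089 with vehicle and 620839 with pioglitazone, from Slc7a7 and Slc5a1 (both 0.33) to Slc4a4 (-0.070) and Gatm (-0.13). Intercalated cell markers were above 0 in 8 of 10 (median 0.23, summed signal 101586 and 124218), with Hepacam2 at 0.43, Foxi1 at 0.42, Aqp6 at -0.0053 and Slc4a1 at -0.030. Thick ascending limb markers were above 0 in 6 of 9 (median 0.095, summed signal 319193 and 369351), with Bsnd at 0.27, Kcnj1 at 0.24, Ptger3 at -0.11 and Cldn19 at -0.25. For the distal convoluted tubule it was 3 of 5 (median 0.26, summed signal 25150 and 35175), with Klk1 at 0.46, Slc12a3 at 0.27, Calb1 at -0.012 and Slc8a1 at -0.15. For principal cells it was 3 of 6 (median 0.020, but -0.023 with quantile scaling, summed signal 92840 and 98480), with Hsd11b2 and Scnn1g at 0.19, Aqp3 at -0.28 and Aqp2 at -0.34. Macrophage markers were above 0 in 0 of 14 (median -0.34, summed signal 35784 and 31851), with Itgam at -0.76, Trem2 at -0.65, Cd14 at -0.13 and Lyz2 at -0.11. Fibroblast markers were above 0 in 1 of 9 (median -0.35, summed signal 26929 and 22590), with Col3a1 at -0.63, Fbln1 at -0.48, Fn1 at -0.25 and Pdgfrb at 0.0019. The part of cell makeup in the shift of the respiratory chain was not tested.

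**Figure D3:**
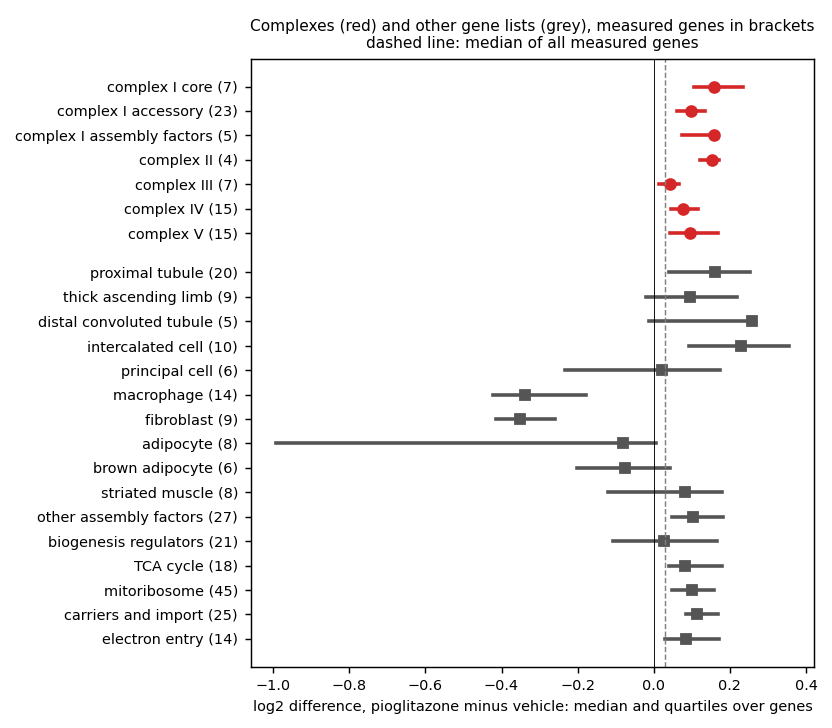
Median (point) and quartiles (bar) of the log2 difference over the measured genes of each complex in red and of each other list in grey, with the number of genes in brackets and the median of all measured genes dashed. The complexes and the other mitochondrial lists sit between 0.04 and 0.16, except the biogenesis regulators at 0.027, and the macrophage and fibroblast lists lie near -0.34 and -0.35.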

How the data were processed

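Deposited per-array scanner output gives each spot's intensity, linear and from 1 colour. Background and spatial trends had been removed within each array by Agilent Feature Extraction 10.7.3.1, per the file headers, and arrays had not been scaled to each other. The deposited value table equals these values at 45018 features of each array. From these values, 149 spots with an outlier flag were left out (none of a member), log2 signals had each array's 75th percentile subtracted, and replicate spots were averaged. RefSeq accessions, taken without versions (GRCr8), named 16959 of 40998 probes. The files' annotation uses another build, so no array coordinates are given. A gene took its brightest probe, and counts as measured where both arrays had that probe well above background and unsaturated. The steps were tested on simulated data.

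Members, 17 gene lists and the rule for named genes were chosen with earlier results of these data known. The text names members past 1.5-fold or below background, the 3 highest and 3 lowest per complex and role, isoform pairs, and the 2 highest and 2 lowest genes of each list. Further fat, muscle and regulator genes were named after their values were seen. Of the members, 1 enters the counts and medians and is not reported here by itself. The list of genes encoded by mitochondrial DNA had no named probe. Tools were Python 3.11.15, statsmodels 0.14.6 and limma 3.58.1 for normexp with an offset of 50.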

Additional observations from a re-analysis of the deposited data

How the results depend on the processing

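Values were recomputed under 14 other settings, and a value counted as moved when it changed by at least 0.072, the replicate-spot SD. No paired analysis was possible because a single array stands for each group. The median of the chain ran from 0.031 (cyclic loess) to 0.17 (unscaled, where the median of all genes was 0.11), and its excess over all genes from 0.026 to 0.14, the latter with the second brightest probe. Unscaled signals gave 0.24 for complex I core, 0.18 for accessory and for all complex I subunits, 0.24 for assembly factors, 0.23 for complex II, 0.12 for III, 0.20 for cytochrome c, 0.15 for IV and for its ubiquitous isoforms, and 0.17 for V. Quantile scaling gave 0.018 for V. Cyclic loess gave 0.025 for complex I accessory subunits, 0.0016 for IV and -0.0046 for its ubiquitous isoforms. Normexp gave 0.21 for cytochrome c. The second brightest probe gave 0.24 for assembly factors, 0.14 for III, 0.19 for cytochrome c and 0.20 for V, over the 9 members that have one, with 9 positive and 0 at 1.5-fold lower. With only spots read at high gain, 34 of 38 members were positive (53.8% of all genes), with medians of 0.12 for III and 0.19 for V. Above the median signal 0 members were 1.5-fold lower, since Cox8b is dimmer. The 1.1-fold threshold gave 23 higher and 2 lower. Subunits minus assembly factors stayed between -0.098 and 0.00085. Signs depended on the scaling. Of 58 named members, 14 had another sign (or 0) with cyclic loess, 13 with quantile scaling, 5 with normexp, 4 unscaled, 3 when scaled to each array's median, 2 with the percentile over detected probes and 1 at high gain. Those whose difference had been larger than 0.072 were Atp5mk (-0.0023), Atp5pf (0) and Cox8a (0) with quantile scaling and Ndufaf1 (-0.0033) with normexp. Others with cyclic loess included Atp5f1e (-0.060), Cox6a1 (-0.033), Uqcr11 (-0.024), Cox5b (-0.022), Ndufa4 (-0.011) and Uqcrb (-0.0051), and Atp5me was at 0.012 unscaled. With cyclic loess the median of complex III was -0.024. Members above 0 numbered 54 of 77 with quantile scaling and 53 of 77 with cyclic loess. List medians also turned. They turned for the brown fat list when unscaled (0.0033), above the median signal (0.064) and with the second probe (0.24), for muscle with normexp (-0.020) and above the median signal (-0.042), for the thick ascending limb with quantile scaling (0), and with the second probe for intercalated cells (-0.18), white fat (0.41) and biogenesis regulators (-0.040). The principal cell median was -0.079 with no filter on dim probes, -0.023 with quantile scaling, -0.021 with cyclic loess and -0.0010 with normexp. The high-gain setting, the 1.1-fold threshold and the removal of the sixth and seventh of 10 bands of grid rows, which moved no median of a complex by that much, were added after seeing the data. Other causes were not tested. The number of arrays, 1 per group, limits all values.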
